A study of Hordeum vulgare with 12 samples.

Results

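miR528 is represented by 4 of the 3258 plant miRNA sequences listed for barley, and 3 of these had counts. Members were the sequences whose names give miR528 more often than any other family, which found 3, plus the entry OLAs_528, which overlaps the 3p strand. Small RNA was sequenced from barley (Hordeum vulgare) of the spring cultivar Golden Promise at 2 weeks of age, separately for shoot and root, with 3 biological replicates in each of 4 groups and therefore 12 libraries. Control plants stood in perlite with 28 mM NH4NO3, and nitrogen-excess plants in the same medium with 280 mM. All groups received 8 µM CuSO4 and grew under the same long days, with seedlings sharing a pot in pairs. Ammonium and nitrate were raised together, so neither can be told apart from the other or from the added salt.

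miR528 is a miRNA of grasses and other monocots. Its precursor is cut into a short duplex of a 5p and a 3p strand. The 5p strand is the one known to guide cleavage of target mRNAs. Known targets in rice and maize include ascorbate oxidase, which controls the redox state of the cell wall space, plantacyanin-like copper proteins, and laccases, the copper enzymes that polymerise lignin. In maize, miR528 has been reported to be higher when nitrogen is abundant and to limit lignin through its laccase targets. With miR397, miR398 and miR408 it is counted among the copper miRNAs, which rise when copper is short and spare the metal by repressing copper proteins.

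The 4 sequences are shown because the results turn on which strand was counted. They are written 5′ to 3′ as DNA letters, as in the deposited files, with the seed (bases 2 to 8) in capitals.
ata-miR528-5p: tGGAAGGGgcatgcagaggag
ata-miR528-3p: cCTGTGCCtgcctcttccatt
OLAs_528: tCCTGTGCctgcctcttccat
osa-miR528-3p: cCTGTGCTtgcctcttccatt
All are 21 bases long. The 5p sequence carries 6 miR528 names, from sorghum, Aegilops, maize, rice and Brachypodium, and the ata-miR528-3p sequence carries 4. The rice form of the 3p strand, osa-miR528-3p, differs from ata-miR528-3p by C8T, counted from 1 at the 5′ end, which lies in the seed. The rice form had 0 counts in all 12 libraries, against 1679 for ata-miR528-3p. A count of 0 among 13883692 listed counts allows a level of up to 0.216 CPM (counts in 1e6) over all libraries. OLAs_528 starts 1 base before ata-miR528-3p and shares 20 bases with it. Their counts were equal in 10 of the 12 libraries and differed by at most 3 in the others, so they are the same reads listed under separate entries and are read as a single measurement below. No sequence of another family in the list shares the seed of either strand. Folded against each other in ViennaRNA, the 5p and 3p strands form 17 base pairs, 1 of them a G-U pair, and each strand is left with a 3′ overhang of 2 bases, the shape of a Dicer product.

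Each library held 245176 to 2246495 counts on listed sequences, which is not its full sequencing depth. Library titles begin with 3 different codes, which the labels do not explain and which are read here as sequencing runs. They are called run A (replicate 1 of every group), run B (replicates 2 and 3 except 1 library) and run C (nitrogen-excess root 3 alone). A further code in the titles follows the same split, so sequencing and preparation batches cannot be told apart. Each library was placed on a scale on which shoot is 0 and root is 1, from 174 sequences other than miR528 with that library left out of the tissue means. On it 5 shoot libraries fell from -0.35 to 0.02, whereas 5 root libraries fell from 0.77 to 1.38. A value of 1.06 was found for the library labelled nitrogen-excess shoot 3, and -0.18 for that labelled control root 3, so each sat among libraries of the other tissue. Labels are used as given, whether these libraries were exchanged was not tested, and results that rest on these libraries are given with and without them.

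In shoot, both strands of miR528 stood higher in every nitrogen-excess library than in every control library. At 28 mM NH4NO3 the 5p strand, the guide, had 55, 68 and 93 counts in replicates 1 to 3. At 280 mM it had 418, 287 and 25 counts, the last in the shallowest library. After TMM scaling within shoot, the control libraries stood at 45.7, 50.2 and 67.3 CPM and the nitrogen-excess libraries at 132, 454 and 134 CPM. The groups did not overlap, the controls lay close together, and nitrogen-excess shoot 2 was the highest. Control averaged 54.4 ± 11.4 CPM and nitrogen excess 240 ± 186 CPM (SD, n = 3 each). The log2 fold change of 2.14 ± 0.84 (SE) did not pass edgeR's quasi-likelihood test (adjusted p = 0.256).

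For the 3p strand the control shoots held 7, 43 and 23 counts, and the nitrogen-excess shoots 1150, 51 and 18. On the same scale the controls stood at 5.81, 31.7 and 16.6 CPM and the nitrogen-excess libraries at 364, 80.7 and 96.3 CPM. Here nitrogen-excess shoot 1 was far above the others and control shoot 1 was the lowest, and the groups again did not overlap. Control averaged 18.1 ± 13 CPM and nitrogen excess 180 ± 159 CPM (SD, n = 3 each), and the log2 fold change was 3.33 ± 0.95 (SE; adjusted p = 0.085, edgeR). No shoot sequence was called (0 of 148, 0%), although 15 had an unadjusted p below 0.05 and DESeq2 called 8 of 145 (5.52%), ata-miR528-3p and OLAs_528 among them (log2 fold change 3.52, adjusted p = 0.00446 in DESeq2 for ata-miR528-3p). The authors' deposited table called 6 of 160 (3.75%), with ata-miR528-3p at 3.40 (adjusted p = 0.0134) and ata-miR528-5p at 2.17 (adjusted p = 0.0836). Of all 148 sequences 12 (8.11%) had every nitrogen-excess library above every control and 8 (5.41%) every one below, and the median change was -0.07. In whole tissue, a change in the RNA of each cell and a change in the share of cells that hold it cannot be told apart.

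**Figure D1:**
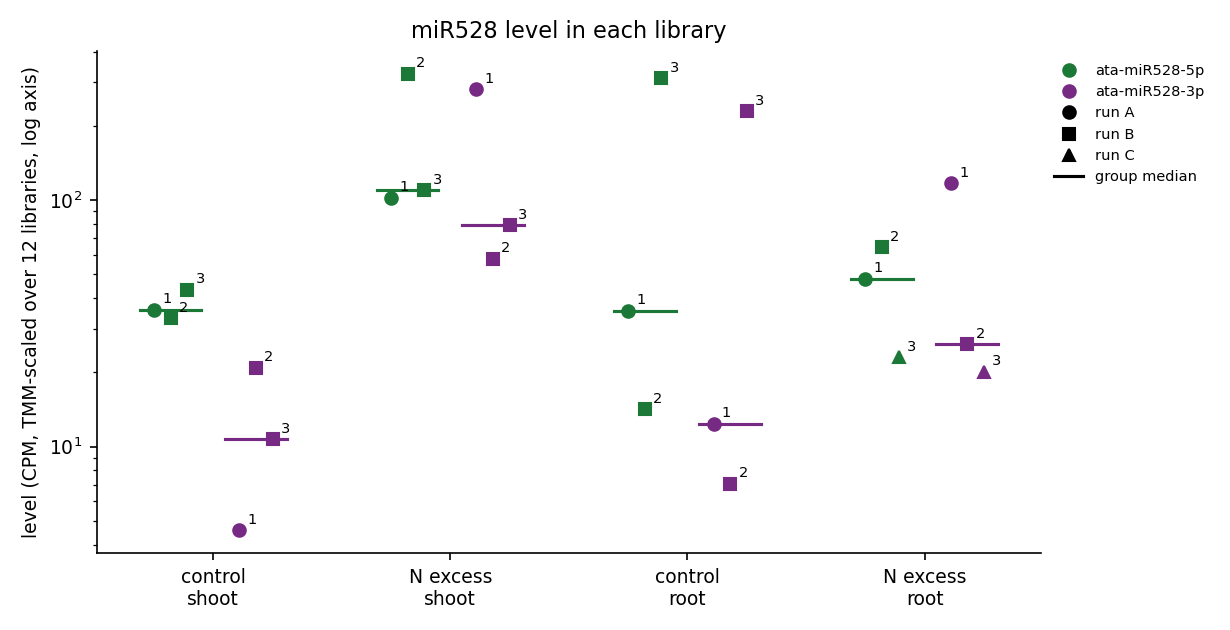
Level of the miR528 5p strand (green) and 3p strand (purple) in each library, in CPM after TMM scaling over all 12 libraries on a log axis. Points are libraries numbered by replicate, symbols give the sequencing run, and lines the group medians. Nitrogen-excess shoots lie above control shoots for both strands, and control root 3 lies far above the other control roots.

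Counted together, with each read taken once, the strands made miR528 a called family in shoot. Of 57 families 5 were called (8.77%), all higher in nitrogen excess, and miR528 had the smallest p. Families were scaled apart from sequences, and on that scale the control libraries held 39.4, 70.6 and 64.7 CPM, and the nitrogen-excess libraries 615, 820 and 238 CPM. The family rose from a mean of 58.2 ± 16.6 CPM to one of 558 ± 295 CPM (SD, n = 3 each), by 3.26 ± 0.81 (SE) on the log2 scale, with an adjusted p of 0.0153 (edgeR). After TMM the median family stood at 0.60, and relative to that median miR528 stood at 2.66. The groups did not overlap, as in 10 of 57 families (17.5%) that were higher in nitrogen excess and 1 (1.75%) that was lower. DESeq2 called 4 of 48 families (8.33%), miR528 among them (2.66, adjusted p = 0.0028). The call was lost with DESeq2 size factors (2.65, adjusted p = 0.126) and with equal totals (2.49, adjusted p = 0.197), where the median family stood at 0.01 and -0.24. It was also lost on leaving out any of the 6 libraries but nitrogen-excess shoot 3, with adjusted p of up to 0.480.

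How far each strand changed in shoot depended on single libraries. Without nitrogen-excess shoot 1, the 3p strand stood at 2.22 ± 0.83 and the 5p strand at 2.41 ± 0.84 (adjusted p = 0.186 and 0.169, edgeR). Without nitrogen-excess shoot 2, the 5p strand stood at 1.29 ± 0.67 (adjusted p = 0.416) and the 3p strand at 3.68 ± 0.97. Leaving out the library labelled nitrogen-excess shoot 3 gave 2.43 ± 0.71 for 5p and 3.62 ± 0.91 for 3p, and the family at 3.15 ± 0.60 (adjusted p = 0.0429). Both strands kept a positive change in each of these fits. Within run B alone, with 2 libraries a group, the 5p strand stood at 2.67 and the 3p strand at 2.08 (adjusted p = 0.185 for each), around a median of 0.44. In run A, with 1 library a group and no test, the log2 ratio of nitrogen excess to control was 1.54 for 5p and 5.97 for 3p. The median over all sequences was -0.51, computed with 1 CPM added to each level, which the strand ratios do not have.

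**Figure D2:**
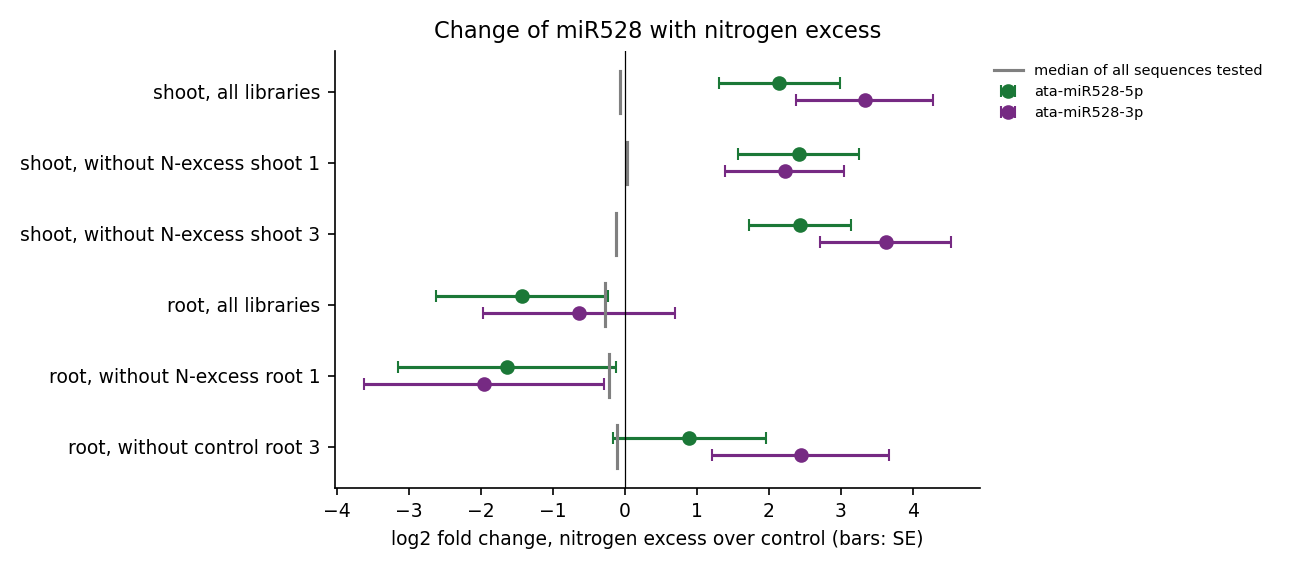
Log2 fold change of nitrogen excess over control for each strand of miR528 (points) with its SE (bars), for all libraries of a tissue and without single libraries. Grey ticks mark the median of all sequences tested. Shoot values stay positive in each fit shown, and root values turn positive without control root 3.

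In root, miR528 showed no change that passed the test. The 5p strand had 23, 6 and 364 counts in control root and 18, 42 and 55 counts in nitrogen-excess root. Scaled within root, these were 25.8, 10.3 and 228 CPM against 34.8, 46.6 and 17.5 CPM. The library labelled control root 3 held the highest value, and the groups overlapped. The log2 fold change was -1.43 ± 1.19 (SE; adjusted p = 0.955, edgeR).

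The 3p strand had 8, 3 and 267 counts in control root and 44, 17 and 48 counts in nitrogen-excess root. On the scaled values this was 8.98, 5.14 and 167 CPM against 85.1, 18.9 and 15.3 CPM, a log2 fold change of -0.64 ± 1.33 (SE; adjusted p = 0.955, edgeR). Control root 3 was again the highest of the 6, and nitrogen-excess root 1 the next. No root sequence was called (0 of 146, 0%), with 1 at an unadjusted p below 0.05, and DESeq2 called 0 of 136 (0%). DESeq2 gave no adjusted p for either strand of miR528, so neither was among those 136. Groups that did not overlap were found for 8 sequences (5.48%) that were higher and 4 (2.74%) that were lower in nitrogen excess, with neither strand of miR528 among them. The family stood at -1.22 ± 1.42 (adjusted p = 0.981, edgeR), with 0 of 65 families called (0%) and 0 at an unadjusted p below 0.05. DESeq2 called 0 of 59 families, and miR528, with no adjusted p there, was not among the 59. In root 1 family (1.54%), not miR528, had groups that did not overlap. In the authors' deposited table ata-miR528-3p is at -0.94 and ata-miR528-5p at -1.77 in root, with no p-value given for either.

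Without the library labelled control root 3, the 3p strand stood at 2.44 ± 1.23 (unadjusted p = 0.0653, adjusted p = 0.604, edgeR), the 5p strand at 0.90 ± 1.06 (adjusted p = 0.819) and the family at 1.71 ± 1.30 (adjusted p = 0.890), so all signs turned. In run A, with 1 library a group, the log2 ratio was 0.43 for 5p and 3.24 for 3p. In run B, with 2 control roots and 1 nitrogen-excess root, the fitted changes were -1.66 ± 2.83 and -2.49 ± 2.96 (SE, the lone library being assumed to vary like the controls). With 9 counts over both strands in control root 2 and 31 in control root 1, the control level in root without control root 3 rests on few reads.

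Whether the response differed between tissues was tested as an interaction over all 12 libraries. The root response minus the shoot response was -3.70 ± 1.45 for 5p and -4.17 ± 1.74 for 3p on the log2 scale (unadjusted p = 0.0214 and 0.0297, adjusted p = 0.849 for each, edgeR). These were the smallest and the third smallest of 177 p-values, of which 8 lay below 0.05 and 0 (0%) were called, and DESeq2 called 0 of 173. In DESeq2 the 5p strand had an adjusted p of 0.451, and the 3p strand was given none. Leaving out control root 3 moved the difference to -1.31 for 5p and -1.07 for 3p. Without both libraries that stood apart it was -1.61 ± 1.08 and -1.11 ± 1.52.

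On the scale shared by all 12 libraries, the median of the 3 libraries of a group ordered the 5p strand from nitrogen-excess shoot (110 CPM) through nitrogen-excess root (48.1 CPM) and control shoot (35.9 CPM) to control root (35.6 CPM). The last 3 groups overlapped, and control root also overlapped nitrogen-excess shoot, through control root 3. For the 3p strand the order was nitrogen-excess shoot (79.3 CPM), nitrogen-excess root (26.1 CPM), control root (12.4 CPM) and control shoot (10.7 CPM), and every neighbouring pair overlapped in its libraries. In control plants, root minus shoot was 1.70 ± 1.01 for 5p and 2.78 ± 1.26 for 3p (adjusted p = 0.355 and 0.233, edgeR; 0 of 177 called, 0%, 35 with an unadjusted p below 0.05, and 23 of 173 or 13.3% called by DESeq2). DESeq2 gave the 5p strand an adjusted p of 0.313 and the 3p strand none. Control root 3 stood at 313 and 229 CPM, and without both libraries that stood apart the differences were -0.81 ± 0.79 and -0.57 ± 1.13. Groups that did not overlap were found for 15 of 177 sequences (8.47%) higher and 7 (3.95%) lower in root, with neither strand among them.

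In nitrogen-excess plants, the 5p strand was at 102, 326 and 110 CPM in shoot and at 48.1, 64.5 and 23.1 CPM in root. The groups did not overlap, as for 9 of 177 sequences (5.08%) that were lower in root and 13 (7.34%) that were higher. Root minus shoot was -2.0 ± 1.03 (adjusted p = 0.679, edgeR), and without both libraries that stood apart it was -2.42 ± 0.75 with an adjusted p of 0.0404. The 3p strand was at -1.39 ± 1.21 (adjusted p = 0.733), with overlapping groups. With all libraries 0 of 177 sequences were called (0%), 9 had an unadjusted p below 0.05, and DESeq2 called 0 of 173 (0%). DESeq2 gave the 5p strand an adjusted p of 0.287 and the 3p strand none. Without both libraries 35 of 183 were called by edgeR. Both libraries were picked because they lay with the other tissue, which bears on this same contrast. The calls without them are therefore no separate support for a tissue difference.

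The balance of the strands can be read within a library and needs no scaling between libraries. The 5p strand, the known guide, had more counts than the 3p strand in 10 of 12 libraries. The mean log2 ratio of 5p to 3p was 0.84 ± 1.32 (SD, n = 12; two-sided exact sign-flip permutation test p = 0.0522, and 0.209 adjusted over 4 tests of this ratio). The 2 exceptions were nitrogen-excess shoot 1 and nitrogen-excess root 1, both of run A. Leaving out either of them, the libraries that go against the direction, gave 1.04 or 1.03 (exact permutation p = 0.0146 and 0.0195). Leaving out any of the other 10 gave 0.65 to 0.89, with exact permutation p from 0.0576 to 0.104. Without both libraries that stood apart the mean was 0.91 (exact permutation p = 0.0762). These tests take the libraries as independent, although shoot and root libraries share replicate numbers and runs.

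As a share of both strands, 3p held 11.3% of 62 counts in control shoot 1 (95% Wilson interval 5.58% to 21.5%), 38.7% of 111 in control shoot 2 (30.2% to 48.0%) and 19.8% of 116 in control shoot 3 (13.6% to 28.0%). In nitrogen-excess shoot it held 73.3% of 1568 (71.1% to 75.5%), 15.1% of 338 (11.7% to 19.3%) and 41.9% of 43 (28.4% to 56.7%). The first of these lay above every control interval, the second below that of control shoot 2. In control root the share was 25.8% of 31 (13.7% to 43.2%), 33.3% of 9 (12.1% to 64.6%) and 42.3% of 631 (38.5% to 46.2%). In nitrogen-excess root it was 71.0% of 62 (58.7% to 80.8%), 28.8% of 59 (18.8% to 41.4%) and 46.6% of 103 (37.3% to 56.2%). These intervals hold counting error alone, leave out the variation between libraries and so compare libraries, not conditions. The reads carry no molecular identifiers and need not be separate molecules, so the intervals may also be too narrow. Replicate 1 of nitrogen excess had the highest share in both tissues. In shoot its interval lay above all others, and in root it overlapped only that of control root 2, which rests on 9 counts, while every other nitrogen-excess interval overlapped that of at least 1 control.

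**Figure D3:**
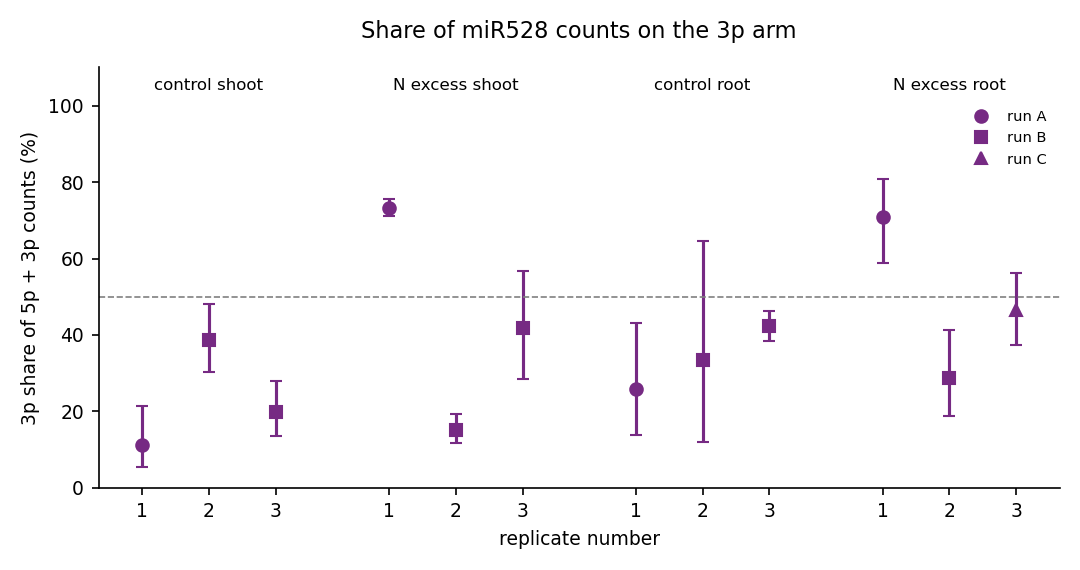
Share of miR528 counts on the 3p strand in each library, in percent of 5p plus 3p counts, with 95% Wilson intervals. Symbols give the sequencing run and the dashed line marks equal strands. Only nitrogen-excess shoot 1 (73.3%) and nitrogen-excess root 1 (71.0%) lie above it with their whole interval.

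Between conditions in shoot, the mean log2 ratio of 5p to 3p was 1.84 ± 1.12 for control and 0.49 ± 1.97 for nitrogen excess (SD, n = 3 each), a difference of -1.35 (two-sided exact permutation p = 0.4). In root it was 0.94 ± 0.51 and 0.07 ± 1.28, a difference of -0.87 (exact permutation p = 0.4). With 3 against 3 libraries this test cannot give less than 0.1. At this size the test could not pass a threshold of 0.05 whatever the difference, so whether the strands changed by different amounts is not decided by it. Within run A the difference was -4.35 in shoot and -2.73 in root, from 1 library a group, and within run B it was 0.15 and 0.61. Without nitrogen-excess shoot 3 the condition difference in shoot was -1.33, and without control root 3 that in root was -1.11. Root minus shoot was -0.67 over all 12 libraries (two-sided exact permutation p = 0.403). With libraries of the same replicate number and condition taken as pairs, the exact sign-flip permutation p was 0.156. Without both libraries that stood apart the difference was -0.80 (exact permutation p = 0.413).

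The other copper miRNAs were compared with miR528 through a list. The list, which was known from earlier results of these data to rise in shoot, held miR397 (against laccases), miR398 (against copper superoxide dismutases), miR408 (against plantacyanins and laccases), miR857 and miR1444. Of its 55 listed sequences 25 had counts and 6 were tested in each tissue. In shoot 6 of 6 were higher in nitrogen excess, 0 were called, and their median log2 fold change was 2.40, beside -0.07 over all 148 sequences with 72 positive. The most abundant sequence of miR397, bdi-miR397b-5p, stood at 2.58 ± 0.92, that of miR398, tae-miR398, at 3.03 ± 1.00, and that of miR408, tae-miR408, at 1.34 ± 0.90 (adjusted p = 0.227, 0.182 and 0.577, edgeR). Without nitrogen-excess shoot 1 the list had 5 of 6 higher and a median of 1.60, with tae-miR398 at 1.25 and tae-miR408 at 0.09. Of all 146 sequences in that fit 75 were positive, and 1 list member was among the 4 called. Without the library labelled nitrogen-excess shoot 3 all 6 were higher, with a median of 2.72, beside -0.12 over 154 sequences with 65 positive. As families, miR397, miR398 and miR408 were 3 of the 5 called in shoot. None of these 3 calls remained without nitrogen-excess shoot 3, where miR528 was the 1 family called, and 0 families were called without any other single shoot library, with DESeq2 size factors or with equal totals.

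In root 2 of these 6 sequences were higher and 4 lower, with a median of -0.20 beside -0.27 over all 146 sequences with 57 positive. Without control root 3 all 6 were higher, with a median of 1.68 beside -0.10 over 156 with 74 positive, and again 0 of the 6 were called. The library labelled control root 3 held the highest level of each of the 4 families among roots, with miR397 at 4708 CPM against 409 and 321 CPM in the other control roots. On the same scale miR397 stood at 333, 264 and 894 CPM in control shoots and at 4284, 3037 and 973 CPM in nitrogen-excess shoots, the last being the library labelled nitrogen-excess shoot 3. Nitrogen-excess root 1, which stands at 0.77 on the scale from shoot to root, was the next highest root in all 4 families. The part of the libraries' position on that scale in these levels was not tested.

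miR528 made up between 2.87% and 14.1% of the 4 copper families in each library. Within the summed counts of miR397, miR398, miR408 and miR528, miR528 took 6.57%, 14.1% and 6.00% of the control shoots and 5.66%, 11.5% and 10.8% of the shoots under nitrogen excess. Control roots gave 5.18%, 4.81% and 7.04%, and nitrogen-excess roots 2.87%, 6.45% and 5.19%. In control root 3, where the miR528 level was the highest among roots, the 95% Wilson interval of its share (6.53% to 7.59%) overlapped those of both other control roots and of nitrogen-excess root 2 (5.03% to 8.23%). The shares overlapped between conditions in both tissues.

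**Figure D4:**
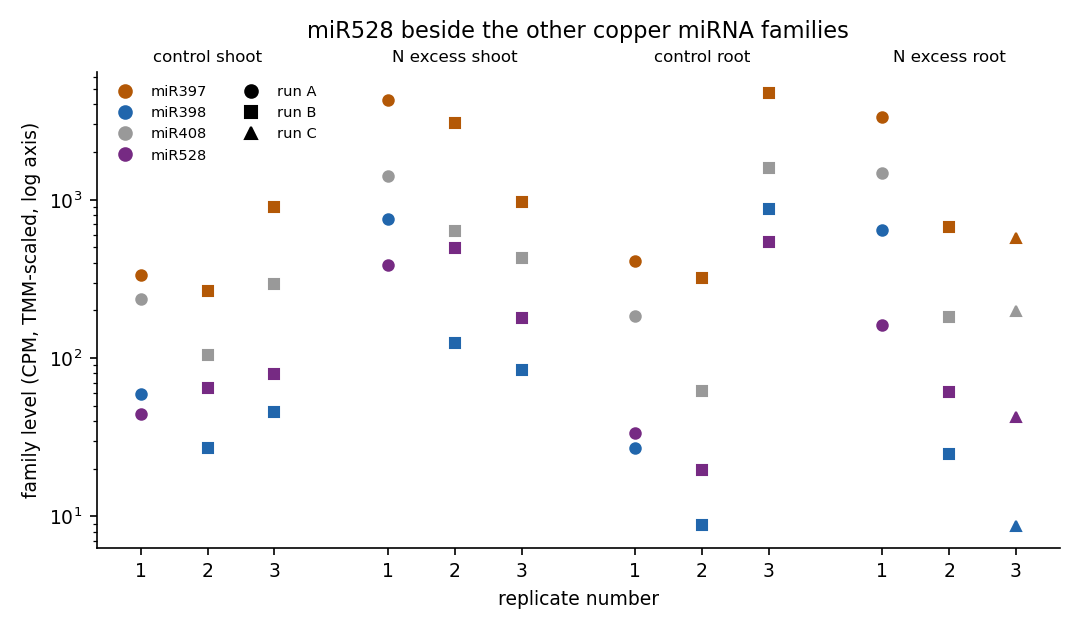
Level of the miR528 family and of miR397, miR398 and miR408 in each library, in CPM after TMM scaling over all 12 libraries on a log axis, with symbols for the sequencing run. All 4 families are high in nitrogen-excess shoot 1 and control root 3. In nitrogen-excess root 1 each lies above the other nitrogen-excess roots, with miR528 at 161 CPM. On this scale miR528 is higher in nitrogen-excess shoot 2 (494 CPM) than in nitrogen-excess shoot 1 (388 CPM). The other families are lower in nitrogen-excess shoot 2. The order of miR528 depends on the scaling. As CPM of listed counts without TMM it is 434 in nitrogen-excess shoot 2 and 698 in nitrogen-excess shoot 1.

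Among 174 other sequences, those whose log2(CPM + 1) over the 12 libraries was most like the 3p strand were bdi-miR397b-5p (Pearson r = 0.90), ata-miR408-5p (0.88), tae-miR398 (0.85), tae-miR408 (0.79) and gma-miR169d (0.78). The first 4 belong to the copper families. The most like the 5p strand were bdi-miR397b-5p (0.76), gma-miR169w (0.75), tae-miR398 (0.70), tae-miR408 (0.70) and ata-miR9674c-3p (0.67). The 2 strands of miR528 correlated with each other at 0.72, and the median sequence with the 3p strand at -0.09. Without both libraries that stood apart the first 5 sequences had r of 0.70 to 0.89 with the 3p strand. The second 5 had r of 0.57 to 0.72 with the 5p strand, tae-miR398 being at 0.59 and tae-miR408 at 0.57, and within the 6 shoot libraries these stood at 0.52 and 0.34. These are descriptions over 12 libraries that share runs and scaling factors.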

How the data were processed

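The authors' deposited tables, 1 per tissue, hold whole-number counts for 3258 listed sequences of 17 to 28 bases. The sources used here do not give how reads were trimmed and counted or how many mismatches were allowed. The submitters' processing notes name DESeq2. The deposited signal columns equal counts divided by a factor per library, and the deposited log2 fold change and p-value columns, per the file headers, compare nitrogen excess with control. Libraries followed the TruSeq small RNA kit, per the labels' protocols.

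Raw counts were fitted with edgeR 4.0.16 (R 4.3.3; TMM, filterByExpr with minimum count 10 and total 15, quasi-likelihood test, Benjamini-Hochberg over all features, threshold 0.05), per tissue by condition, and over 12 libraries by group. Standard errors derive from the fold change and F. Families sum all sequences of a name, without OLAs_528. All 3 counted members passed the filters. Strand ratios used log2 with 0.5 added to each count and exact permutation tests. ViennaRNA 2.7.2 (RNAduplex) folded the strands. The fit was run on simulated counts with known changes but without runs or outlying libraries, which checks the code alone. Named were all members with counts, the most abundant sequence of each copper family, and the 5 sequences most correlated with each strand (at most 2 a family). Members and lists were chosen with earlier results of these data known. Alternatives were other scalings, filters, DESeq2 1.42.0, run or replicate terms, and leaving out libraries.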

Additional observations from a re-analysis of the deposited data

How the results depend on the processing

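For ata-miR528-3p in shoot the call was gained with no filter on low counts (log2 fold change 3.58, 8 of 450 sequences called). It was also gained with the DESeq2 test (3.52, 8 of 145 called). With the replicate number as a block it was gained too (3.11, adjusted p = 0.0438, edgeR, 3 of 148 called). OLAs_528, which holds the same reads, was among the called in each of these settings. The called family change in shoot was no longer called with DESeq2 size factors (2.65), equal totals (2.49), no filter (2.93), a filter of 20 counts in 3 libraries (2.73) or run B alone (2.14). In root, the sign of ata-miR528-3p turned with the replicate block (0.87) and with the run as a term (0.29, and 0.30 for OLAs_528), and that of the family with the replicate block (0.55). For root against shoot in control plants, signs turned without both libraries that stood apart (-0.57 for 3p and -0.81 for 5p). For nitrogen-excess plants the 5p difference was then called (-2.42), in a fit whose left-out libraries were picked by their place between the tissues. For the strand ratio, run B alone, chosen after seeing the data, gave 1.17 over libraries (exact permutation p = 0.0156, the smallest it can give), 0.15 for the condition in shoot and 0.61 in root, the last 2 with turned signs. The cause of these changes was not tested. Leaving out 1 library each gave 2.22 to 4.18 for 3p in shoot, 1.29 to 2.54 for 5p, and 2.39 to 3.15 for the family. In root it gave -1.95 to 2.44 for 3p, -1.94 to 0.90 for 5p and -2.07 to 1.71 for the family, and for OLAs_528 -1.94 to 2.44. Root against shoot ranged from -0.83 to 3.55 (3p; OLAs_528 to 3.54) and -1.14 to 2.31 (5p) in control plants, and the mean strand ratio from 0.65 to 1.04. The turned signs came without control root 3. Same-numbered libraries correlated at 0.50, 0.07 and 0.05 in shoot and 0.15, 0.50 and -0.24 in root in their deviations from group means. Differently numbered ones ranged from -0.42 to 0.36 in shoot and from -0.52 to 0.32 in root. The highest value in each tissue thus came from a same-numbered pair, while the other same-numbered pairs lay within these ranges. The main fits did not take the replicate numbers as pairs, and the block is given as an alternative. The block changed no other call except that of OLAs_528 in shoot. For OLAs_528 the same values held within the difference of at most 3 counts. Some libraries held few miR528 reads: 9 and 31 counts in control roots 2 and 1, where the listed totals were 1148952 and 1633631. Nitrogen-excess shoot 3, the library with the lowest total (245176), held 43. The part of these low counts in the spread was not tested.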

Other observations

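Of 15 families with at least 100 counts on each strand in shoot, miR408 had the largest nitrogen-excess difference in the log2 ratio of 5p to 3p, at 2.78, towards its 5p strand, and miR528 stood at -1.35, with 2 families lower. The other families had a median of -0.41. The miR528 value rested on nitrogen-excess shoot 1, without which it was -0.37, and the replicate 2 libraries gave 1.83. Between the replicate 1 libraries alone, miR408 stood at 3.02 and miR528 at -4.35 in shoot, where the 14 families other than miR528 ranged from -1.95 to 3.02. In root the difference over 3 replicates was -0.87 for miR528 beside a median of -0.81, with 6 of 14 families lower. There the replicate 1 libraries gave -2.73, where the other families ranged from -1.66 to 3.02, and replicates 2 and 3 gave 0.39 and -0.25. These values were chosen after they were seen and were not tested.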
